A study of Homo sapiens with 4 samples.

Results

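Chromosomes 4, 13 and 18 carry few genes for their length, and their chromatin domains were compared here between sarcoma cells without and with restored BAF47. All domains listed on these 3 chromosomes in the 4 deposited lists were taken, which gave 2922 of the 26136 domains of the series. Chromosome 4 held 1537 of them, chromosome 13 held 728 and chromosome 18 held 657, summed over the 4 samples, and none was filtered out. RefSeq (GRCh38 assembly) names 769 protein-coding genes on chromosome 4, 338 on chromosome 13 and 270 on chromosome 18, or 4.09, 3.53 and 3.61 per listed Mb, the 3 lowest densities of the 22 autosomes. The background was the 21438 domains of 17 other autosomes, with 7.64 genes per listed Mb. Chromosomes 9 and 20 were left out of it because their positions are numbered differently between the lists.

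The cells were VA-ES-BJ, an established line from an epithelioid sarcoma, a soft tissue tumour that commonly lacks BAF47. One pair of lists (A and B) came from cells that carried an empty lentiviral vector, and 2 more (A and B) came from cells with a lentiviral vector for constitutive BAF47 expression, so the control cells also carry a vector. Both groups were selected with blasticidin at 10 µg/ml and fixed in 1% formaldehyde, and the labels differ on whether 48 h and 5 days refer to virus exposure, selection or growth. Whether A and B were infected separately is not stated, so a p-value below reflects the spread of these 4 lists and no more, and that spread may be technical. The assay was Hi-C, in which neighbouring ends of cut, crosslinked chromatin are joined and sequenced as pairs. The lists give no score, count or expression value, so read depth is unknown here, and neither the BAF47 level nor the cell type could be checked in them.

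A topologically associating domain is a stretch of chromosome whose sequences contact each other more than they contact their surroundings. Its boundaries are often held by the protein CTCF and by cohesin, the ring complex that extrudes chromatin loops, and many lie near active genes. Gene-poor chromatin tends to lie at the nuclear lamina in long inactive domains, and chromosome 18 is a textbook case of a gene-poor chromosome placed near the nuclear edge. BAF47, the product of SMARCB1, belongs to the core of the BAF (SWI/SNF) complex, which uses ATP to move and evict nucleosomes at enhancers and promoters.

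Positions are in steps (bins) of 50 kb and are given as listed. Chromosome 13, whose short arm is unsequenced in hg18, starts at position 0 in the lists, so the numbering leaves bins out and is not a set of hg18 coordinates. No gene was placed on a domain for that reason. The listed spans were 187.8 Mb for chromosome 4, 95.75 Mb for chromosome 13 and 74.8 Mb for chromosome 18, each with the same last position in all 4 samples. Against empty vector A, 77.98 to 83.0% of the domain starts of the other samples lay at the same listed position on chromosome 4, 80.3 to 84.3% on chromosome 13 and 69.7 to 75.9% on chromosome 18, and none of the 4 equal segments of any of these chromosomes was out of step.

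Chromosomes 4 and 13 had the longest mean domains of the 20 autosomes compared, which leave out chromosomes 9 and 20. On chromosome 13 the mean length was 451 and 438 kb in empty vector A and B and 464 and 458 kb in BAF47 A and B. On chromosome 4 it was 411 and 427 kb in the empty vector samples and 438 and 428 kb in the BAF47 samples. In each of the 4 samples chromosome 13 ranked 1 and chromosome 4 ranked 2 of 20 chromosomes. Chromosome 18 was different. Its mean was 327 and 342 kb in the empty vector samples and 348 and 371 kb in the BAF47 samples. These values ranked between 4 and 12 of 20 and lay 3.63 to 49.3 kb above the background means of 321 to 323 kb. Over the 3 chromosomes together the mean exceeded the background by 92.1 ± 11.02 kb (SD over 4 samples) and was higher in all 4 (exact two-sided sign-flip permutation p = 0.125, the smallest that 4 samples allow).

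The excess of the 3 chromosomes together showed more in the upper part of the length range than at the median. The upper quartile was 400 kb in each sample, against 300 to 350 kb in the background. The median length was 200 to 250 kb in each of the 4 samples over the 3 chromosomes and 150 to 200 kb in the background, a difference of 0 or 50 kb in each sample. Domains of 1 Mb or more took up 35.8, 35.5, 38.6 and 39.6% of the span of the 3 chromosomes (empty vector A and B, BAF47 A and B) against 28.6 to 29.4% of the background, 8.44 ± 1.77 points more (SD over 4 samples, exact two-sided sign-flip permutation p = 0.125). For chromosome 18 alone the share was 28.4, 25.5, 31.6 and 35.9%. This lay below the background in both empty vector samples and above it in both BAF47 samples. Such shares were not limited to gene-poor chromosomes. Background chromosome 16 had 39.1, 38.6, 39.7 and 39.7%, more than the 3 chromosomes together in each sample. Of 20 chromosomes, chromosome 4 ranked 1 or 2 and chromosome 13 ranked between 1 and 4. Domains of a single bin, the smallest the grid allows, made up 13.9 to 15.1% of the domains of the 3 chromosomes and 18.1 to 18.6% of those of the background. Chromosome 18 did not share this, with 23.5, 16.5, 20.2 and 18.2%, of which 2 values lay above those of the background. The longest domain of the 20 autosomes compared was on chromosome 4, 9050 kb in both empty vector samples (126.85 to 135.9 Mb) and 9000 kb in both BAF47 samples (126.9 to 135.9 Mb). Chromosome 13 held one of 7450 to 7500 kb that started at 43.55 Mb in all 4 samples. The longest domain of chromosome 18 was 3300 and 2750 kb with empty vector and 4150 kb in both BAF47 samples.

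Boundaries were sparse, also on chromosome 18, whose mean domain length lay closer to that of the background than those of chromosomes 4 and 13 did. Chromosome 13 had 18.8 to 19.3 domain starts per 10 Mb, the lowest of the 20 chromosomes in each sample. Chromosome 4 had 20.1 to 21.0 and chromosome 18 had 21.1 to 22.5. Over the 3 chromosomes the density was 20.7, 20.2, 20.2 and 20.4 per 10 Mb, and in the background 24.8, 24.7, 24.96 and 25.2. The difference of −4.54 ± 0.27 (SD over 4 samples) had the same sign in each sample (exact two-sided sign-flip permutation p = 0.125), and the 2 sets of values did not overlap.

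**Figure D1:**
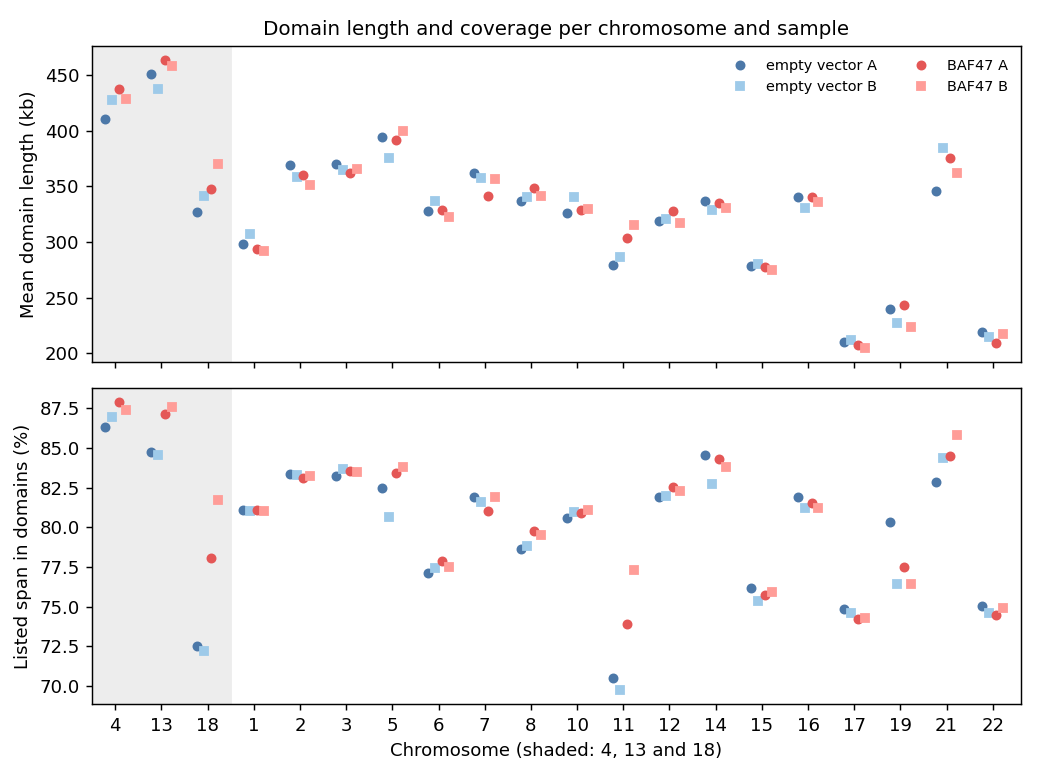
Mean domain length (upper panel, kb) and share of the listed span that lies in domains (lower panel, %) for each chromosome (x axis), with 1 point per sample and no error bars, and with chromosomes 4, 13 and 18 shaded. Chromosomes 4 and 13 have the longest mean domains in every sample, and chromosome 18 has coverage of 72.2 to 72.5% with empty vector and 78.1 to 81.8% with BAF47.

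Coverage, the share of the listed span that lies inside a domain, set chromosome 18 apart from chromosomes 4 and 13. Domains covered 86.3 to 87.9% of chromosome 4 and 84.5 to 87.6% of chromosome 13, and these took the first 2 of 20 ranks in each sample. Chromosome 18 was covered to 72.5 and 72.2% with empty vector (rank 19 of 20 in both) and to 78.1 and 81.8% with BAF47 (ranks 14 and 10). Pooled coverage was 83.0, 83.2, 85.6 and 86.3% against 80.3, 79.9, 80.6 and 80.8% in the background, a difference of 4.13 ± 1.32 points (SD over 4 samples, exact two-sided sign-flip permutation p = 0.125). For chromosome 18 alone the difference was −4.27 ± 4.27 points, with 3 samples below the background and BAF47 B above it (exact two-sided sign-flip permutation p = 0.25).

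Most of what lies between domains is a single bin: 85.5 to 87.8% of the spaces between neighbouring domains of the 3 chromosomes were 50 kb long, and 86.5 to 87.8% in the background. No 2 listed domains adjoined. Longer unlisted stretches, here called gaps where they reach 100 kb, were few on chromosome 4 (1.81 to 2.40 per 10 Mb) and numerous on chromosome 18 (4.28 to 4.81 per 10 Mb), where the background had 3.06 to 3.32. Gaps took up 2.98 to 4.15% of chromosome 4. They took up 18.9 and 19.5% of chromosome 18 with empty vector and 12.9 and 9.69% with BAF47, against 8.18 to 9.40% of the background.

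The BAF47 lists covered more of each of the 3 chromosomes than the empty vector lists did, and the mean domain length was greater while the median was not. On chromosome 18 the empty vector samples had a coverage of 72.4 ± 0.24% and the BAF47 samples 79.9 ± 2.60% (SD, n = 2 each), a difference of 7.55 points that exceeded the 3.68 points between the BAF47 samples. On chromosome 13 it was 84.6 ± 0.15% and 87.4 ± 0.30%, a difference of 2.72 points against replicate gaps of 0.21 and 0.42. On chromosome 4 it was 86.6 ± 0.43% and 87.6 ± 0.36%, a difference of 0.99 points against gaps of 0.61 and 0.51. In each case both BAF47 values lay above both empty vector values, as they did on 35.3% of the 17 background chromosomes, with both below on 11.8%. Each of these 3 comparisons had an exact two-sided permutation p of 0.33, the smallest that 2 samples against 2 allow, so no difference between the vectors in the text could pass a threshold of 0.05.

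Among 20 chromosomes, chromosome 18 ranked 1 in this coverage difference, chromosome 13 ranked 3 and chromosome 4 ranked 6. Chromosome 11 ranked 2, with 5.46 points. Over the 3 chromosomes the empty vector samples had 83.1 ± 0.14% and the BAF47 samples 85.9 ± 0.43% (SD, n = 2 each), a difference of 2.82 points against 0.58 in the background. Set against the background of each sample, the difference was 2.24 points (exact two-sided permutation p = 0.33).

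Mean domain length followed the same order between the groups. Over the 3 chromosomes it was 406 ± 6.95 kb in empty vector samples and 423 ± 0.33 kb in BAF47 samples (SD, n = 2 each), a difference of 16.6 kb that exceeded the 9.83 and 0.46 kb between replicates (exact two-sided permutation p = 0.33). The difference was 14.1 kb on chromosome 4, 16.7 kb on chromosome 13 and 24.8 kb on chromosome 18, with both BAF47 samples above both empty vector samples on each, where the background had 11.8% of chromosomes above and 23.5% below. Chromosome 11 of the background ranked 1 in this difference, at 26.7 kb and without overlap, ahead of chromosomes 18, 13 and 4. The median did not share this direction: it was 225 ± 35.4 kb with empty vector and 200 kb in both BAF47 samples over the 3 chromosomes, a difference of −25 kb, and it differed by −25 kb on chromosome 4, −12.5 kb on chromosome 13 and 0 kb on chromosome 18. On chromosome 4 the 14.1 kb lay within the 16.98 kb between the empty vector samples, and it was 27.3 kb between the A samples and 0.97 kb between the B samples. The background mean differed by −1.17 kb. The number of domains overlapped between the groups on each of the 3 chromosomes: 395 and 382 against 377 and 383 on chromosome 4, 180 and 185 against 180 and 183 on chromosome 13, and 166 and 158 against 168 and 165 on chromosome 18.

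The groups differed in how much of each chromosome lay in long domains and in gaps. The share of the span in domains of 1 Mb or more was 38.5 ± 0.06% and 40.5 ± 0.41% on chromosome 4, 36.9 ± 0.81% and 40.5 ± 0.70% on chromosome 13, and 26.9 ± 2.08% and 33.8 ± 3.03% on chromosome 18 (empty vector and BAF47, SD, n = 2 each). The groups did not overlap on any of the 3. In the background this share was likewise higher in both BAF47 samples on chromosomes 5, 8, 10, 11, 14 and 16. It was lower in both on chromosomes 2, 3, 7, 15 and 17. Gap length went from 19.2 ± 0.43% to 11.3 ± 2.27% of chromosome 18, from 7.34 ± 0.04% to 4.28 ± 0.52% of chromosome 13 and from 4.13 ± 0.04% to 3.25 ± 0.38% of chromosome 4, again without overlap. Both BAF47 samples likewise had less gap length on background chromosomes 1, 5, 6, 8, 10, 11, 12 and 21, and the reverse did not occur there. In the background both shares moved less, from 28.7 ± 0.17% to 29.1 ± 0.40% for long domains, which overlapped, and from 9.18 ± 0.31% to 8.36 ± 0.26% for gaps (exact two-sided permutation p = 0.33 for each of the gap differences).

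The number of gaps was lower in both BAF47 samples on chromosome 13 and overlapped on chromosomes 4 and 18. There were 28 gaps of 100 kb or more in each empty vector sample of chromosome 13 and 22 and 19 in the BAF47 samples, and 35.3% of background chromosomes likewise had fewer gaps per 10 Mb in both BAF47 samples. Chromosome 4 had 38 and 45 against 34 and 40, and chromosome 18 had 36 and 32 against 32 and 36, so these overlapped. What differed on chromosome 18 was the length of its gaps. Each empty vector sample listed 4 gaps of 1 Mb or more there, BAF47 A listed 1 and BAF47 B listed 0. The longest was 2850 and 3600 kb in the empty vector samples and 2650 and 700 kb in the BAF47 samples.

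**Figure D2:**
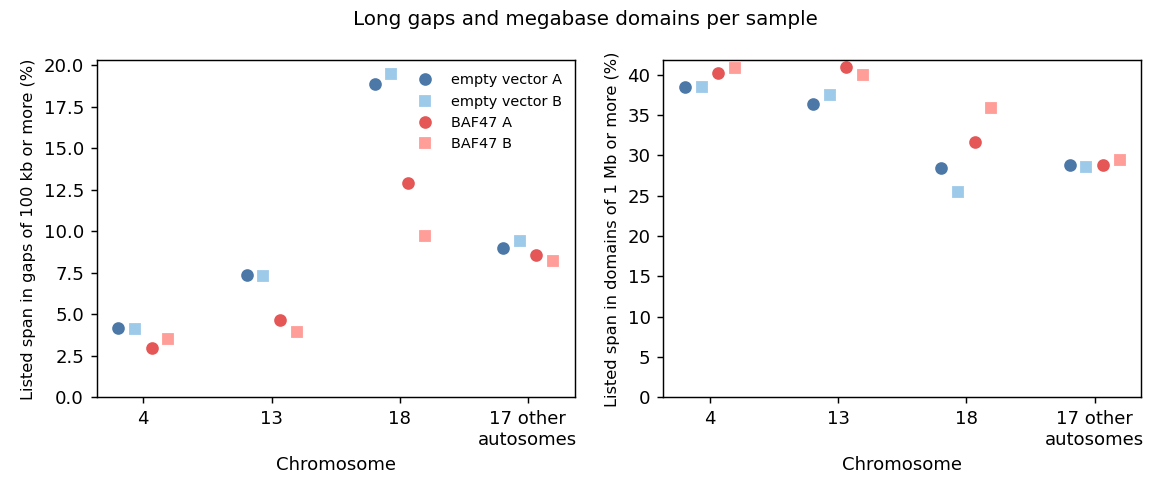
Share of the listed span in gaps of 100 kb or more (left, %) and in domains of 1 Mb or more (right, %) on chromosomes 4, 13 and 18 and over the 17 other autosomes (x axis), with 1 point per sample and no error bars. On chromosome 18 the gap share is 18.9 and 19.5% in the empty vector samples and 12.9 and 9.69% in the BAF47 samples.

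A large part of these differences lay in 1 stretch on each chromosome, in which both BAF47 samples listed a single long domain and the empty vector samples listed several shorter domains and gaps. The longest empty vector domain there was a single bin on chromosome 18, 3850 kb on chromosome 13, and 150 kb (A) and 2200 kb (B) on chromosome 4. The stretches were found by a rule set after the values were seen: a domain of 2 Mb or more, matched between both samples of a group with 90% reciprocal overlap, no 75% of which lay in any single domain of the other group. On the 3 chromosomes 3 of 22 such BAF47 domains met it, 1 on each chromosome. With 50% in place of 75% only that of chromosome 18 was left, since a single empty vector domain covered 62.9% of the domain on chromosome 4 and 62.6% of that on chromosome 13. In the background 1 of 97 did, or 1.03%, on chromosome 11. In the opposite direction, 0 of 20 long empty vector domains on the 3 chromosomes and 1 of 98 in the background (1.02%) had no BAF47 counterpart. No test was made, since the rule was drawn from these values.

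The stretch of chromosome 18 ran from 32.1 to 36.25 Mb, and BAF47 A and B both listed it as 1 domain of 4150 kb with the same edges. Empty vector A listed 3 domains of a single bin inside it and empty vector B 2, so that they covered 3.61 and 2.41% of it. The longest gap that touched it was 1400 kb in empty vector A and 3600 kb in empty vector B. The empty vector samples thus left nearly the whole stretch outside any domain, and they placed their few small domains differently.

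The stretch of chromosome 13 ran from 34.75 to 40.9 Mb, 6150 kb in both BAF47 samples. Both empty vector samples listed 4 domains there, the longest from 35.3 to 39.15 Mb (3850 kb), and covered 70.7 and 71.5% of it. The remainder was mostly gap, with 850 kb from 39.15 to 40 Mb and 550 kb from 40.05 Mb onwards in both. The empty vector samples were alike here, and the long BAF47 domain extended past both ends of theirs.

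The stretch of chromosome 4 started at 112.45 Mb and ended at 116 Mb in BAF47 A (3550 kb) and at 115.95 Mb in BAF47 B (3500 kb). Here the empty vector samples differed from each other. Empty vector A listed 10 domains of at most 150 kb that covered 28.2% of it, with 9 gaps. Empty vector B listed 6, the longest of 2200 kb with its end at the BAF47 B end, and they covered 70.4%.

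**Figure D3:**
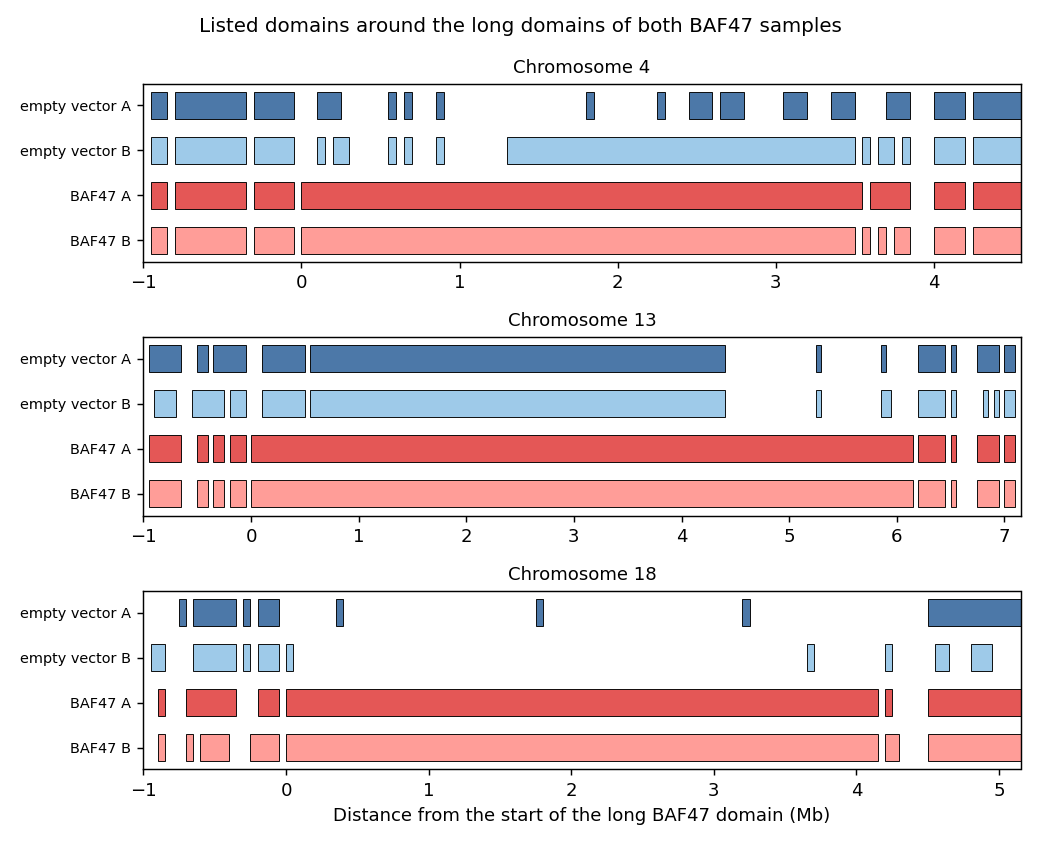
Listed domains (boxes) of each sample around the 3 stretches, with distance from the start of the long BAF47 domain in Mb on the x axis and 1 row per sample; white is unlisted. Both BAF47 samples show 1 box across each stretch, of 3550 and 3500 kb, 6150 kb and 4150 kb, and the empty vector samples show between 2 and 10 smaller boxes.

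Without these 13.85 Mb, the coverage difference over the 3 chromosomes was 0.73 points in place of 2.82. Both BAF47 samples were still above both empty vector samples. The rule picks stretches that a BAF47 domain fills, so leaving them out lowers the difference by construction. The same removal was not made in the background. On chromosome 4 it was 0.04 points and the groups overlapped. On chromosome 13 it was 0.92 points and on chromosome 18 it was 2.30 points, both without overlap. The value left on chromosome 18 was carried by BAF47 B, at 80.7% against 76.8% in BAF47 A and 76.6 and 76.3% in the empty vector samples. That sample alone listed a domain of 3150 kb from 58.5 to 61.65 Mb, where the other 3 samples listed a gap of 2650 to 2850 kb, so the 2 BAF47 samples disagreed on this second long stretch of chromosome 18.

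In windows of 10 Mb along the listed positions, boundary density and coverage varied widely within each chromosome. There were 19 windows on chromosome 4, 10 on chromosome 13 and 7 on chromosome 18, with a last window kept where it held 5 Mb or more. The mean over the 4 samples ranged from 6 to 40 domain starts per window (median 20.4, and 23.5 over 216 background windows), and from 65.5 to 94.2% coverage (median 85.9%, and 82.1% in the background). The densest window was the first of chromosome 4, with 43 and 37 starts with empty vector and 39 and 41 with BAF47. The sparsest was 60 to 70 Mb on chromosome 13, with 6 starts in each of the 4 samples.

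Coverage was higher in both BAF47 samples than in both empty vector samples in 14 of the 36 windows (38.9%) and lower in 4 (11.1%), where the background had 18.5% higher and 13.4% lower. The 14 were 6 windows of chromosome 4, 5 of chromosome 13 and 3 of chromosome 18. Starts did not lean the same way: 5 windows had more in both BAF47 samples (13.9%, background 14.8%) and 6 had fewer (16.7%, background 10.2%). Gaps of 100 kb or more were fewer in 7 windows (19.4%, background 13.9%) and more numerous in 3 (8.33%, background 6.02%). The shares for starts and gaps lay near those of the background.

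The widest coverage difference was in the window from 30 to 40 Mb of chromosome 18, which was covered to 49 and 38% with empty vector and to 88 and 87% with BAF47. It holds the 4150 kb domain, and its domain starts were alike, at 13 and 12 against 12 and 13. Next on this chromosome was 50 to 60 Mb, at 63.5 and 69.5% against 71 and 84%. The groups were apart in both windows, but in the latter the BAF47 samples differed by more than the means of the groups did.

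On chromosome 4 the window from 110 to 120 Mb was covered to 59.5 and 74% with empty vector and to 85.5 and 84.5% with BAF47, with 30 and 26 starts against 20 and 22 and with 11 and 8 gaps against 3 and 3. It accounted for 1.82 Mb of the 1.85 Mb by which BAF47 coverage of chromosome 4 was higher, and without it the coverage difference of the chromosome was 0.01 points, with overlap. On chromosome 13 the window from 30 to 40 Mb was covered to 82 and 81% against 91 and 91.5%, and that from 40 to 50 Mb to 79.5 and 79% against 87.5% in both. Both hold part of the 6150 kb domain, and the chromosome's difference was 1.90 points without the first of them, with the groups still apart. On chromosome 18 the difference was 1.93 points without the window from 30 to 40 Mb, and the groups overlapped. Each window left out had the largest coverage change of its chromosome, so the difference falls by construction.

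**Figure D4:**
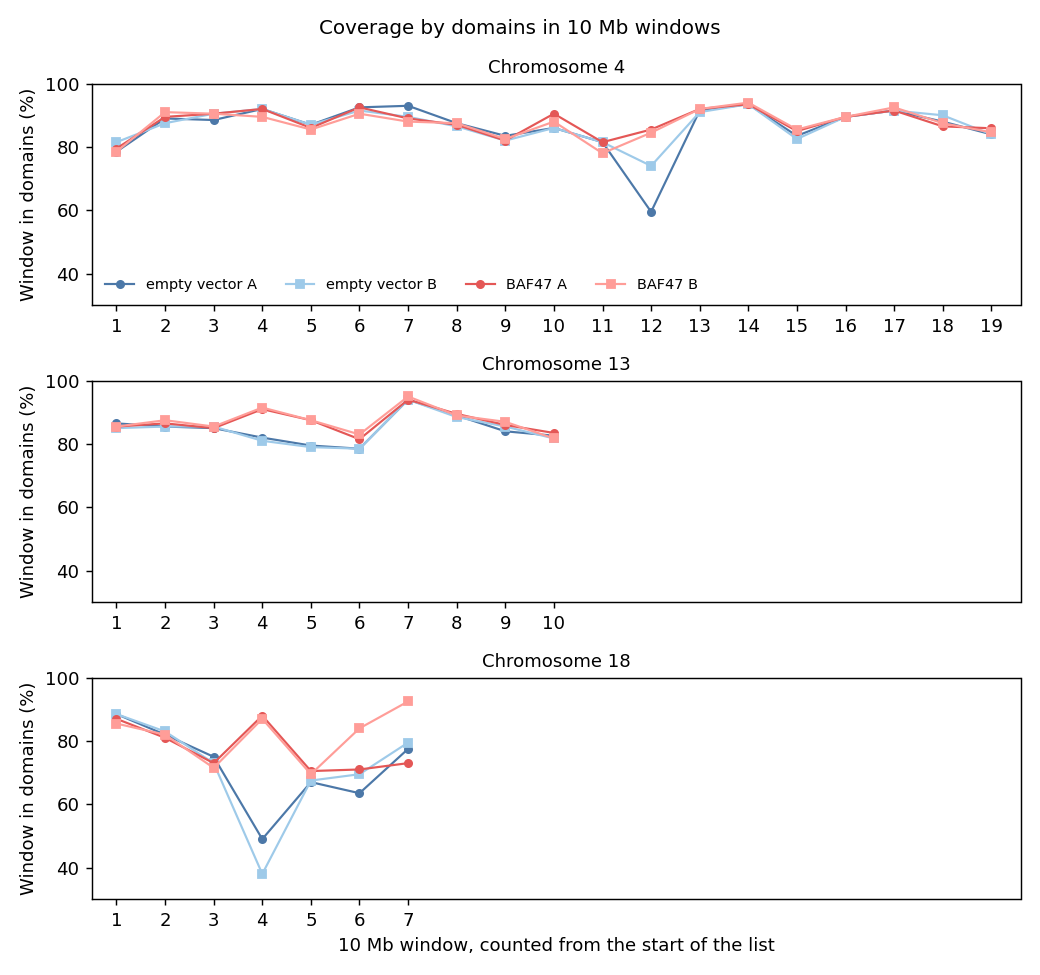
Share of each 10 Mb window that lies in domains (y axis, %, starting at 30) by window number counted from the start of the list (x axis), with 1 line per sample and no error bars, for chromosomes 4, 13 and 18. The 4 lines are farthest apart at the 12th window of chromosome 4, the 4th and 5th of chromosome 13 and the 4th, 6th and 7th of chromosome 18.

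In other windows the lists differed over shorter distances. Between 125.9 and 126.6 Mb on chromosome 4, both BAF47 samples listed 1 domain of 700 kb where both empty vector samples listed domains that ended at 126.15, 126.25, 126.5 and 126.6 Mb. The window from 120 to 130 Mb had 17 and 18 starts with empty vector and 14 in both BAF47 samples, and 14 of its 39 reproducible edges differed between the groups, 3 gained and 11 lost. In the window from 90 to 100 Mb, both BAF47 samples listed 1 domain of 950 kb from 95.85 to 96.8 Mb, and both empty vector samples listed domains of 50, 150, 400 and 150 kb in its place. There 3 edges were gained and 9 lost of 33 reproducible ones. Edges, as used here, are the distinct starts and ends of domains, and an edge is reproducible if both samples of a group list it at the same position.

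Replicates shared more edges on chromosome 13 than on chromosome 4, and fewest on chromosome 18. The Jaccard index, the shared edges of a pair of lists as a percentage of the edges in either, was 81.6% for the empty vector pair and 82.4% for the BAF47 pair of chromosome 13. It was 74.6 and 78.6% on chromosome 4 and 65.7 and 66.5% on chromosome 18, whose 2 values were each the lowest of 20 chromosomes. Background pairs had 78.01 and 79.6%.

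Between samples of different vectors the index was lower than between replicates on chromosomes 4 and 13. The 4 mixed pairs had 69.6 to 71.0% on chromosome 4 and 73.0 to 76.9% on chromosome 13, so replicates exceeded them by 6.31 and 7.30 points on average. These were the second and the highest excess of 20 chromosomes, and the background had 2.54 points. On chromosome 18 the excess was 1.48 points, rank 15 of 20, and the mixed pair of empty vector B and BAF47 A, at 70.2%, agreed better than either pair of replicates. Pooled, the excess was 5.37 points. Each had an exact permutation p of 0.33, the smallest that the 3 ways to form pairs allow. Whole domains, with both ends kept, gave 54.2 and 54.5% between replicates of chromosome 4 against 42.4 to 46.0% in mixed pairs, and 62.2 and 59.9% against 46.6 to 51.9% on chromosome 13. Chromosome 18 had 45.3 and 44.2% against 42.1 to 48.2%, which overlapped (exact permutation p = 0.67).

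**Figure D5:**
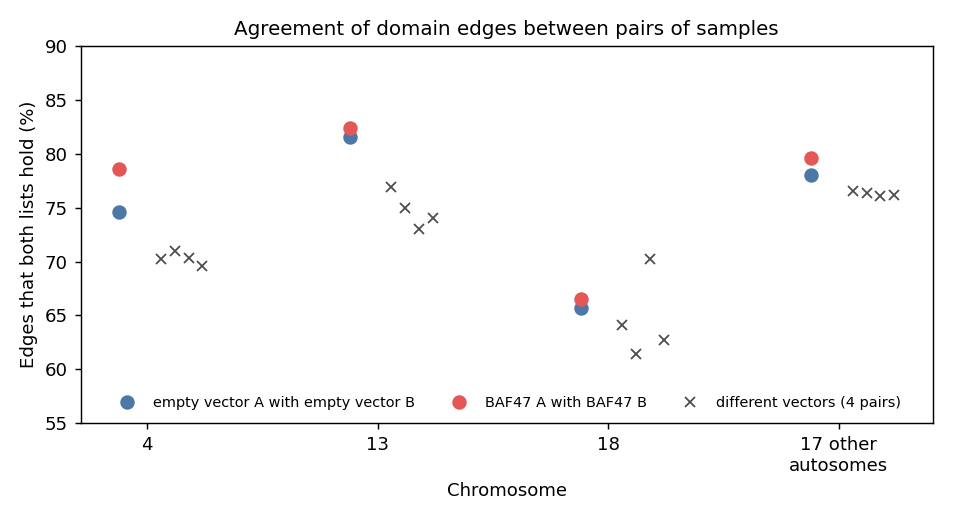
Share of domain edges that both lists of a pair hold (y axis, %, starting at 55) on chromosomes 4, 13 and 18 and over the 17 other autosomes (x axis), with 1 point per pair of samples. On chromosomes 4 and 13 both pairs of replicates lie above all 4 pairs of different vectors, and on chromosome 18 one mixed pair, at 70.2%, lies above both.

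An edge was called gained if both BAF47 samples and no empty vector sample listed it, and lost in the reverse case. Over the 3 chromosomes 76 edges were gained and 86 lost of 1462 reproducible edges, 5.20 and 5.88%, where the background had 3.65% gained and 3.26% lost. Chromosome 4 had 39 gained and 55 lost of 779, a share of 12.1% (95% Wilson interval 9.96 to 14.5%). Chromosome 13 had 20 and 22 of 373, 11.3% (8.44 to 14.9%). These were the 2 highest shares of 20 chromosomes, against 6.91% in the background. Chromosome 18 had 17 and 9 of 310, 8.39% (5.79 to 12.01%), rank 4, with an interval that holds the background share. The intervals cover counting error only, and the edges of neighbouring domains are not independent.

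Of the 162 differing edges, 93 (57.4%) had an edge of the opposite group 50 kb away and none closer, which is 1 bin, and 64.8% did in the background. Another 49, or 3.35% of the reproducible edges, lay over 100 kb away, where the background had 1.39%. Of these 49, 14 were gained and 35 lost, and 24 of the lost ones were on chromosome 4 and 11 on chromosome 13. Chromosome 18 had 4 gained and 0 lost edges at such distances.

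On chromosomes 4 and 13 the lost edges farthest from any BAF47 edge lay inside the long stretches. On chromosome 13 the edge at 39.15 Mb, the end of the 3850 kb domain of both empty vector samples, was 1750 kb from the nearest BAF47 edge, and those at 40 and 40.05 Mb, the ends of a single-bin domain, were 900 and 850 kb away. On chromosome 4 the edges at 113.35, 113.3 and 113.15 Mb, all of single-bin domains, were 900, 850 and 700 kb away. The 9 lost edges of chromosome 18 lay close to BAF47 edges, 8 of them 50 kb away and 1 of them 100 kb away. Those named by rule were at 45.15 Mb (100 kb away) and, first by position among equals, at 5.05 and 31.1 Mb (50 kb away). The last 2 ended or started domains of different length in the 2 empty vector samples. Inside the stretch of chromosome 18 from 32.1 to 36.25 Mb the empty vector samples shared no edge. No edge there could therefore be called lost, although the lists differed widely.

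Most of the gained edges farthest from any empty vector edge lay inside empty vector domains. At 68.45 Mb on chromosome 4, a gained edge ended a domain of 200 kb in both BAF47 samples inside a 400 kb domain of the empty vector samples (68.25 to 68.65 Mb). A pair at 51 and 51.05 Mb parted one of 350 kb (50.85 to 51.2 Mb). On chromosome 13 the edges at 51.65 and 51.85 Mb, 500 and 300 kb from any other, bounded a 200 kb domain within a gap of 1100 kb that both empty vector samples listed from 51.05 to 52.15 Mb. The edge at 12 Mb ended a 300 kb domain within one of 450 kb. On chromosome 18 the edges at 68.85 and 69.8 Mb, each 200 kb away, and at 3.4 Mb, 150 kb away, lay within empty vector domains of 300 to 1750 kb. Those at 68.85 and 69.8 Mb fell in the window from 60 to 70 Mb, where 8 of 16 reproducible edges differed between the groups.

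Most domains that were identical in both empty vector samples were identical in both BAF47 samples as well. Of 514 such domains on the 3 chromosomes 341 were, or 66.3% (95% Wilson interval 62.1 to 70.3%), against 74.9% of 3838 in the background (73.5 to 76.3%). The share was 63.0% of 273 on chromosome 4, 69.3% of 140 on chromosome 13 and 71.3% of 101 on chromosome 18. By length it was 58.3% of 60 domains of a single bin, 66.9% of 357 from 100 to 450 kb, 74.2% of 62 from 500 to 950 kb and 60% of 35 from 1 Mb upwards. The background had 66.7, 77.2, 72.4 and 76.6% in the same 4 classes. The intervals cover counting error only, and the share was not tested over samples.

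Domains kept in outline but parted inside were found in both directions. A domain was called split if its 2 ends were listed in all 4 samples and both BAF47 samples, but neither empty vector sample, added an edge between them, and merged in the opposite case. Trimming by 1 bin is therefore counted too. There were 16 split of 386 (4.15%, background 2.72%) and 18 merged of 381 (4.72%, background 2.29%). Chromosome 4 held 11 split and 10 merged, chromosome 13 held 5 and 7, and chromosome 18 held 0 and 1. The longest merged domains of chromosome 4 were at 18.15 to 19.7 Mb (1550 kb) and 17.25 to 18 Mb (750 kb), neighbours that each stood in place of 2 domains in both empty vector samples. Those of chromosome 13, at 3.15 to 4.3 Mb (1150 kb) and 90.45 to 91.3 Mb (850 kb), held a single inner domain, as did the merged domain of chromosome 18 at 48.85 to 49.15 Mb (300 kb). The longest split domains, of 450 to 550 kb at 3.45 and 135.95 Mb on chromosome 4 and at 23.2 and 11.7 Mb on chromosome 13, each held 2 domains in both BAF47 samples.

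A part of the structure was the same in all 4 samples. Over the 3 chromosomes 341 domains were identical in all 4, of 725 to 741 per sample. The background had 2875 of 5318 to 5409. On chromosome 4 all 4 samples listed 172 identical domains, of 377 to 395 per sample. On chromosome 13 they listed 97 of 180 to 185, and on chromosome 18 they listed 72 of 158 to 168. Among them were long ones, of 8900 kb (26.8 to 35.7 Mb), 3450 kb (88.05 to 91.5 Mb) and 3000 kb (157.2 to 160.2 Mb) on chromosome 4. Chromosome 13 had 5050 kb (67.5 to 72.55 Mb), 3800 kb (62.6 to 66.4 Mb) and 2650 kb (85.4 to 88.05 Mb), and chromosome 18 had 2150 kb (65 to 67.15 Mb), 1650 kb (0.85 to 2.5 Mb) and 1350 kb (49.75 to 51.1 Mb). On chromosomes 4 and 18 gaps were shared less than domains were. No background share is given for shared gaps, so whether this is particular to these chromosomes cannot be told. Identical gaps of 100 kb or more in all 4 samples numbered 12 on chromosome 4, of 34 to 45 per sample. Chromosome 13 had 11 of 19 to 28 and chromosome 18 had 5 of 32 to 36. The longest on chromosomes 4, 13 and 18 were of 300 kb (117 to 117.3 Mb), 600 kb (42.95 to 43.55 Mb) and 200 kb (10.45 to 10.65 Mb). No gap of 1 Mb or more could be identical in all 4 samples, since BAF47 B listed 0 of that length. Of the 36 windows, 7 held no gained or lost edge (52 of 216 in the background), and on chromosome 4 those from 80 to 90 Mb and from 150 to 160 Mb had the same number of starts in all 4 samples, 29 and 21.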

How the data were processed

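Hi-C domain lists of 4 samples (2 empty vector, 2 BAF47) were analysed. The authors deposited, per sample, the start and end positions of domains as other values, with no score, count or depth. The submitters' processing notes name hg18 as the build. Aligner, domain caller and filters: not given in the sources used here. Each sample has a list of its own.

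All rows on chromosomes 4, 13 and 18 were used as listed, and no column was left unused. Positions were checked against the 50 kb grid, for overlaps and for steps in the numbering between samples (0 found). Edges matched at a distance of 0 kb. Lengths, coverage, gaps and edge agreement were computed in Python 3.11.15 with numpy 2.4.6, pandas 2.3.3 and scipy 1.17.1, and plotted with matplotlib 3.10.9. The counting of gained and lost edges was tested on copies of the empty vector A list in which known changes had been planted. Sample values were compared by exact two-sided permutation of the group labels (6 assignments), and chromosomes with the background by exact sign flips over the 4 samples. Since precision per list is unknown, only the spread between samples is given.

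The chromosomes, measures and rules were chosen with earlier results of these data known. By rule, the regions named are, per chromosome, the 3 gained and 3 lost edges farthest from the other group, the 3 longest domains and gaps identical in all 4 samples, the 2 windows with the largest share of differing edges, the 2 largest differences in starts and in coverage, and the 2 longest split and merged domains. The long stretches, the domains described inside windows and the gaps were picked after their values were seen. Alternatives were other matching distances, starts alone, trimmed ends, other windows and backgrounds, leaving out each sample, and pairing by letter. No sequence is printed because the listed positions cannot be placed on a genome.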

Additional observations from a re-analysis of the deposited data

How the results depend on the processing

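Of 134 alternative values over the 3 chromosomes, 94 stayed, 38 moved and 2 reversed, and of 394 for single chromosomes 300 stayed, 86 moved and 8 reversed; causes were not tested. The differences in coverage and gaps between vectors, and those in mean length, coverage, starts and gaps from the background, kept their direction over the 3 chromosomes in each alternative tried. The difference of −5 domains was −13 to 3 with 1 sample left out, 3 without empty vector A (−3.5 to 1.5 on chromosome 13, with 1.5 without empty vector B and 0.5 without BAF47 A). The median length gave −25 kb (−25 on chromosome 4, −12.5 on chromosome 13) where the mean gave 16.6. Gained and lost edges were 27 and 48 with matching within 50 kb, 16 and 38 within 100 kb and 50 and 55 for starts alone, which compare fewer edges or match more of them by construction. With 1 sample left out they were 144 to 165 and 138 to 180. The excess of replicates over mixed pairs was 3.53 to 6.57 points, and −1.45 (without BAF47 B) to 3.70 on chromosome 18. Replicate agreement was −3.43 points from the background, −2.69 with chromosomes 9 and 20 added to it, −1.20 and −1.06 with matching within 50 and 100 kb, and −4.38 without the first and last 5 Mb. The share of differing edges was 4.17 points above the background, 1.997 with chromosomes 9 and 20 added, 2.19 and 1.83 at 50 and 100 kb and 5.98 for starts. On chromosome 18 it fell to −0.70, −0.15 and −0.30 points under the first 3 of these. Windows with more starts numbered 8 to 12 and those with fewer 7 to 10 with 1 sample left out, and the latter 3 of 18 at 20 Mb. Windows with less coverage numbered 8 of 72 at 5 Mb, 1 of 18 at 20 Mb, 2 of 34 when shifted by 5 Mb and 6 to 8 with 1 sample left out. Long BAF47 domains without a counterpart were 1 when 50% coverage counted as a counterpart.

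The shared letters were treated as names and not as pairs: over 252 windows, same-letter samples' deviations had r = −0.02 for starts and −0.03 for coverage. With the replicate block, windows with more starts numbered 8 in place of 5. Unknown depth limits all these values.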
